A study of Mus musculus with 8 samples.

Results

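The genes described here are Egr1, Egr2, Egr3, Nr4a1, Ier2, Dusp2, Dusp5, Dusp6, Spry1 and Spred1. They are immediate early genes and feedback inhibitors of the Ras to ERK pathway, chosen by name from the platform annotation. They are 10 of 18193 genes with a probe set of their own, and they were measured by 19 of the 45037 probe sets of the array. Expression was measured on 8 Affymetrix mouse arrays, 2 for each of 4 groups, in 2 T cell leukemia lines. Both lines arose in E2a-/- mice, which lack the transcription factors E12 and E47, regulators of the first steps of lymphocyte growth and commitment.

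The first group was the E2a-/-Lef1F/F line infected with MigR1-Cre, a retrovirus that carries GFP and the Cre recombinase. The second was that line infected with MigR1, which carries GFP alone. The third and the fourth were an E2a-/- line with unmodified Lef1 infected with MigR1-Cre or MigR1. In the Lef1F/F line Cre removes the part of Lef1 that encodes the DNA binding domain of LEF1, a transcription factor of T cell progenitors. In the E2a-/- line there are no loxP sites, so, if the titles name the virus rightly, it gives the effect of infection with Cre itself. Cells positive for GFP were collected by sorting, 72 hours after they were infected. Each genotype was a single line grown from the thymus of a sick mouse, and what is due to genotype or to the line cannot be told apart. The labels do not say whether the 2 arrays of a group came from separate infections, and p-values then measure only the spread between these arrays, which may be technical.

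A growth factor or an antigen receptor switches on Ras, which activates the kinases RAF, MEK and ERK in turn. ERK phosphorylates factors bound at immediate early genes, whose RNA then appears within minutes and needs no new protein. Among the products of the pathway are its own brakes: DUSP phosphatases, which remove phosphate from ERK, and the Sprouty and SPRED proteins, which act on Ras and RAF. In developing T cells RasGRP1 joins the receptor to Ras, Syk family kinases act just below the receptor, and the EGR factors carry the signal to the genome.

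RefSeq promoter windows of GRCm38.p6, from 250 bases before to 50 after each start, were at hand for 7 of the 10 genes in 11 windows. Egr1, Egr3 and Ier2 were not among them. The stretches below are shown because they hold the serum response element or the binding motif of the EGR factors. Each covers bases -150 to -51 before the start, 5′ to 3′, and capitals mark the motif. The first pair holds the serum response element, to which SRF and its ERK-activated partners bind. The second pair holds the EGR site GCGNGGGCG or its reverse complement.

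Dusp5, chr19:53528995-53529094, plus strand: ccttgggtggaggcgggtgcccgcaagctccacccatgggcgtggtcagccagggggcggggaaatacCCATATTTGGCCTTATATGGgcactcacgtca
Egr2, chr10:67537719-67537818, plus strand: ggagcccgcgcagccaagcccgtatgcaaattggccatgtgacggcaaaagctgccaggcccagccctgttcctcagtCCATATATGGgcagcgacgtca
Nr4a1, chr15:101266696-101266795, plus strand: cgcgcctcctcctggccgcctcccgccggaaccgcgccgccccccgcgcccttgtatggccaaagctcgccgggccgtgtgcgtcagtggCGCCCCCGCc
Dusp2, chr2:127336009-127336108, plus strand: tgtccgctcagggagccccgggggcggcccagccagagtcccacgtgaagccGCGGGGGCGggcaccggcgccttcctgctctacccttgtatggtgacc

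The serum response element was searched as a letter pattern on both strands: CC, a run of A or T, then GG, as in the capitals of Egr2 above. Of 32851 promoter windows, 1.63% held this element. It stood in 5 of the 11 windows of these genes, 4 of them windows of Egr2, which hold 2 separate elements, since 3 of the 4 overlap and share theirs. Dusp5 held 2 copies side by side, from -82 to -73 and from -72 to -63. The EGR site was in 5.55% of all windows and in those of Dusp2 and Nr4a1. The LEF1/TCF sites CTTTGAA and CTTTGAT, in 5.14% and 3.73% of all windows, were in none of the 11, nor was the ETS site CCGGAAGT (3.89% of all) or the cyclic AMP response element TGACGTCA (1.79% of all). These matches describe letters in these windows and are not binding sites shown in these cells.

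Across the table, array medians lay between 88.9 and 91.0 intensity units, and the median over all probe sets and arrays was 89.8. The measured T lineage markers summed to 39930 to 45442 units in the Lef1F/F arrays and to 35944 to 37084 in the E2a-/- arrays. Over all groups, the B cell markers summed to 353 to 380, the myeloid markers to 487 to 526 and the erythroid markers to 362 to 426. Lef1, the target of Cre, read 1903 and 1678 units with MigR1-Cre against 6918 and 6126 with MigR1 in the Lef1F/F line at its brighter probe set. The E2a-/- line gave 3008 and 3416 with MigR1-Cre against 3288 and 3337 with MigR1. Each array was run on RNA of many cells, so a fall in a gene and a fall in the number of cells that express it cannot be told apart.

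Egr1 was the only one of the 10 genes that passed the limma threshold (adjusted p under 0.05) with MigR1-Cre in the Lef1F/F line. It encodes a zinc finger transcription factor and is among the first genes to respond to ERK. Its intensity was 150 and 164 units with MigR1-Cre against 267 and 239 with MigR1. Both MigR1-Cre arrays were below both MigR1 arrays. Egr1 in the E2a-/- line read 112 and 116 with MigR1-Cre against 116 and 115 with MigR1, and these arrays overlapped. The order of the groups was thus Lef1F/F MigR1, then Lef1F/F MigR1-Cre, then both groups of the E2a-/- line, which did not differ beyond their spread.

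**Figure D1:**
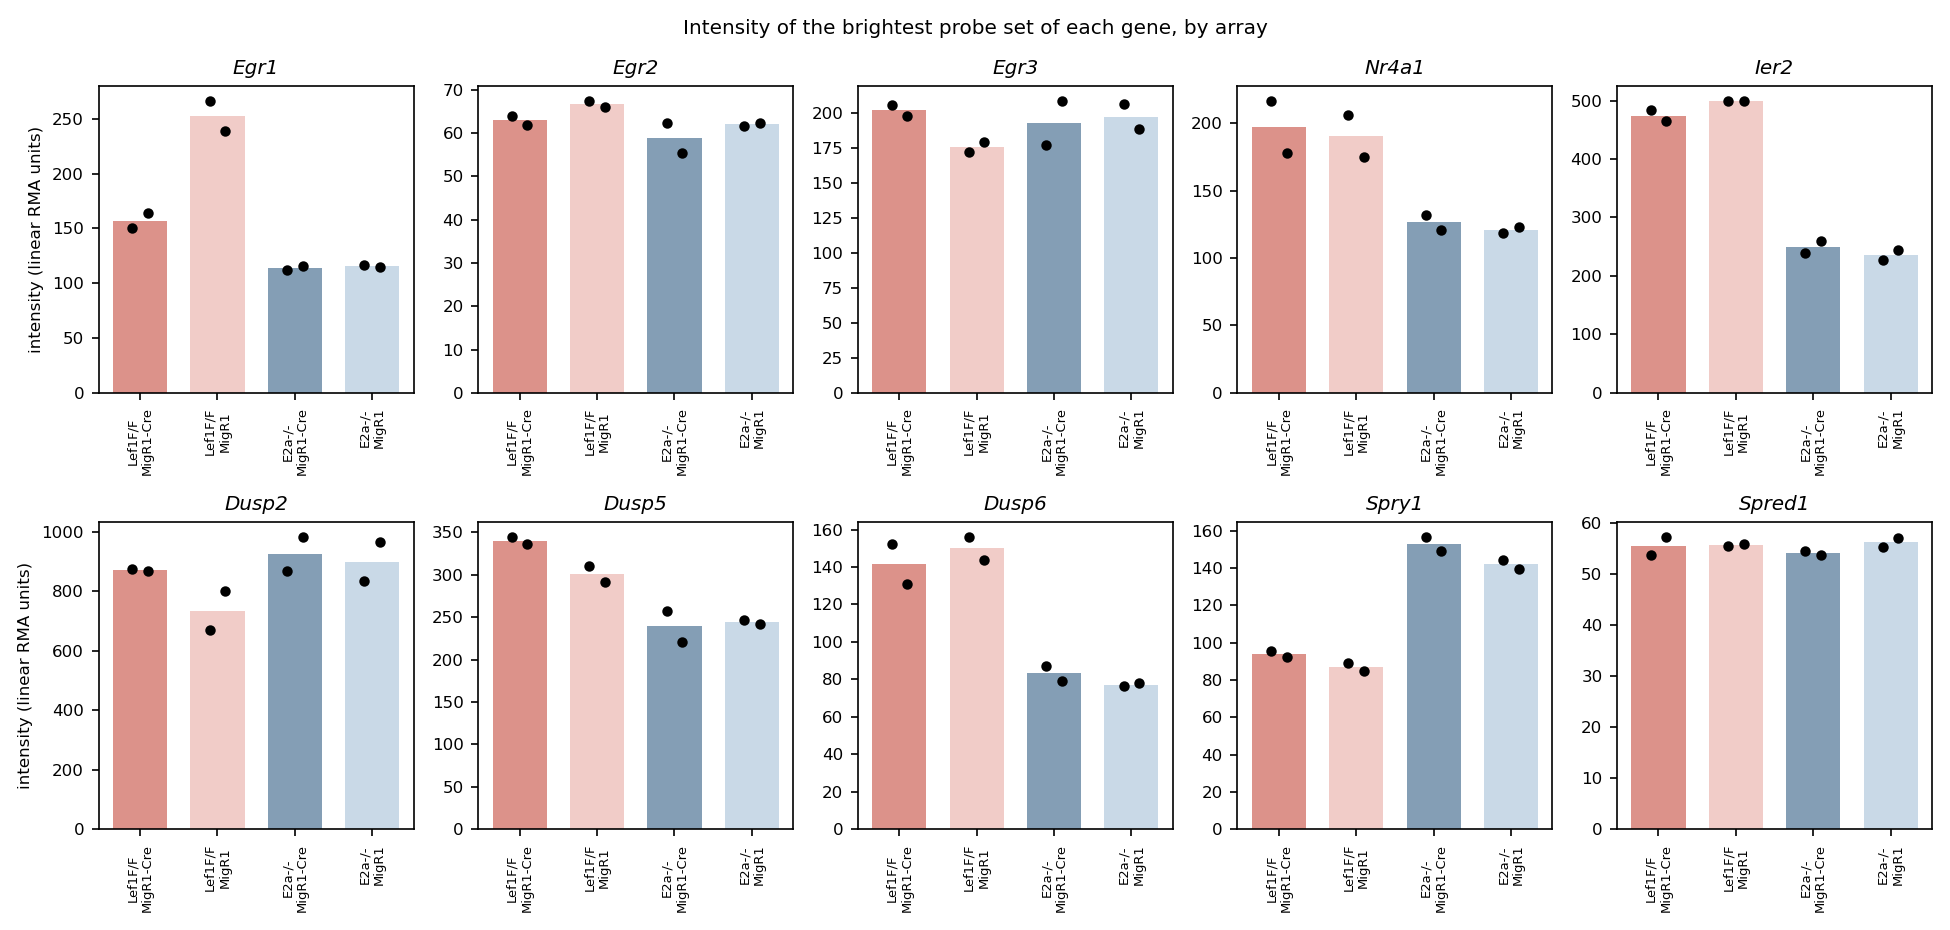
Intensity (linear RMA units, axis from 0) of the brightest probe set of each of the 10 genes in the 4 groups; bars are means and points are the 2 arrays. Egr1 averaged 157 with MigR1-Cre and 253 with MigR1 in the Lef1F/F line, while Ier2, Dusp6 and Nr4a1 were high and Spry1 low in both groups of that line.

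In limma, Egr1 was 1.61-fold lower with MigR1-Cre in the Lef1F/F line (log2 difference -0.69 ± 0.07 SE, 95% interval -0.86 to -0.51, adjusted p = 0.0175). Of all probe sets, 0.167% passed in that comparison, and 0.220% of genes passed as lower, against 1 of these 10 genes. In the E2a-/- line the difference of Egr1 was -0.02 ± 0.07, with a 95% interval of -0.19 to 0.15. The 2 differences differed by -0.67 ± 0.11, which did not pass the test of the difference over all probe sets (adjusted p = 0.255). In that test 0.0200% of all probe sets passed and none of the 19 probe sets of these genes did.

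The size of the Egr1 difference lay between -0.76 and -0.59 in 17 other settings, but its call was fragile. With any 1 array left out, the adjusted p was 0.0399 to 0.132, and it stayed below 0.05 only without the second Lef1F/F MigR1 array. With the spread taken from the 4 Lef1F/F arrays alone it was 0.475. When the Lef1F/F arrays were taken as 2 pairs, a pairing known from earlier results of these data and not from the labels, the adjusted p was 0.000755 for the Lef1F/F line and 0.0239 for the difference between the lines. That fit called 0.766% of all probe sets in the Lef1F/F line, and Egr1 was again the only one of the 10 genes. The pairs were taken from these same arrays, so p-values of the paired fit may be too low. Here and below they are a description and not further support. Hspa1b, a heat shock gene that handling of cells can raise, moved the same way as Egr1, with 182 and 198 units with MigR1-Cre against 253 and 308 with MigR1 in the Lef1F/F line (-0.56 ± 0.12, adjusted p = 0.255, or 0.00881 with the pairs). Its part in the result was not tested. The other 9 heat shock and stress genes had no difference past the threshold with MigR1-Cre in that line in either fit. Of the cell type markers, Cd2 (-0.46, adjusted p = 0.0816 without and 0.00819 with the pairs), Ptcra (0.48, 0.2 without and 0.00661 with) and the stromal marker Pdgfrb (-0.40, 0.649 without and 0.0379 with) also moved in the paired fit, and their part was not tested.

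**Figure D2:**
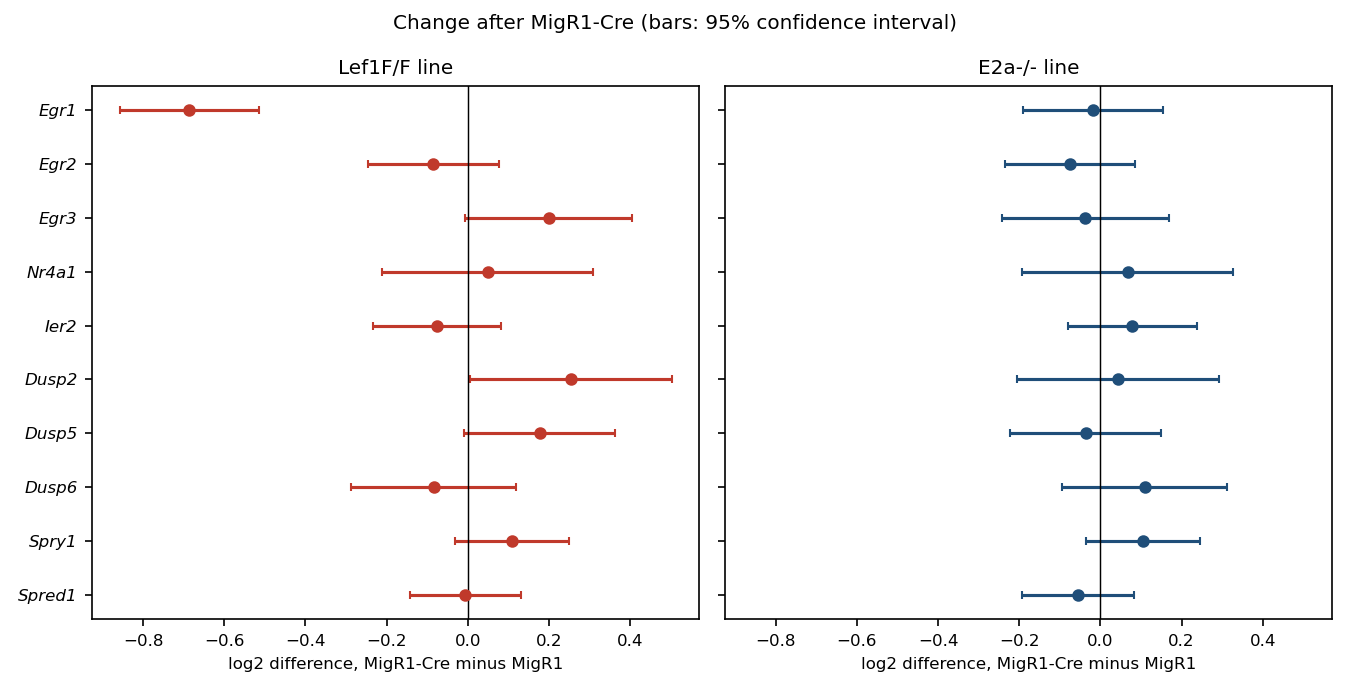
Log2 difference between MigR1-Cre and MigR1 (x axis) for each of the 10 genes in the Lef1F/F line (left) and the E2a-/- line (right); points are estimates and bars are 95% confidence intervals. Egr1 at -0.69 in the Lef1F/F line stands apart, and the other estimates in that line lie between -0.08 and 0.25.

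The other EGR genes did not pass. Egr3, a zinc finger factor induced with Egr1 in thymocytes, read 206 and 198 units with MigR1-Cre against 172 and 180 with MigR1 in the Lef1F/F line. These arrays did not overlap, and the estimate was opposite in sign to that of Egr1 (0.20 ± 0.09, 95% interval -0.01 to 0.41, adjusted p = 1). Egr3 read 177 and 209 with MigR1-Cre against 206 and 188 with MigR1 in the E2a-/- line. Egr2, which acts beside Egr3 in T cell development, was dim in every array, at the 25.4th percentile of all probe sets. Its brighter probe set read 63.9 and 61.9 with MigR1-Cre against 67.5 and 65.9 with MigR1 in the Lef1F/F line, and 62.4 and 55.5 with MigR1-Cre against 61.5 and 62.4 with MigR1 in the E2a-/- line. The table gives no detection call, so values at this level cannot be told from background.

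Nr4a1, the orphan nuclear receptor Nur77 that antigen receptor signals induce in T cells, read 217 and 178 units with MigR1-Cre against 206 and 175 with MigR1 in the Lef1F/F line. The arrays overlapped, and the difference was 0.05 ± 0.11 (95% interval -0.21 to 0.31). Nr4a1 read 132 and 121 with MigR1-Cre against 119 and 123 with MigR1 in the E2a-/- line. Ier2, an immediate early gene for a nuclear protein, read 483 and 465 with MigR1-Cre against 500 and 500 with MigR1. Its difference of -0.08 ± 0.07 (95% interval -0.23 to 0.08) did not pass, although the arrays did not overlap. The E2a-/- line had 238 and 260 units of Ier2 with MigR1-Cre against 227 and 244 with MigR1. The intervals of Nr4a1 and Ier2 in the Lef1F/F line lie wholly above that of Egr1.

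Of the phosphatases, Dusp2, a nuclear enzyme that lymphocyte activation induces, was the brightest of the 10 genes. It read 876 and 868 units with MigR1-Cre against 670 and 799 with MigR1 in the Lef1F/F line, and 869 and 982 with MigR1-Cre against 833 and 965 with MigR1 in the E2a-/- line. Dusp5, another nuclear ERK phosphatase, whose promoter with 2 serum response elements is shown above, read 344 and 336 with MigR1-Cre against 310 and 292 with MigR1 in the Lef1F/F line. Both genes had their MigR1-Cre arrays above their MigR1 arrays in that line. Neither difference passed over all probe sets, with an adjusted p of 1 for both. For Dusp2 it was 0.25 ± 0.11 (95% interval 0.004 to 0.50). For Dusp5 it was 0.18 ± 0.08 (95% interval -0.01 to 0.36). Dusp6, the cytoplasmic phosphatase specific for ERK, read 152 and 131 with MigR1-Cre against 156 and 144 with MigR1. Those arrays overlapped, and the difference was -0.08 ± 0.09 (95% interval -0.29 to 0.12). Dusp6 read 87.0 and 79.4 with MigR1-Cre against 76.4 and 77.8 with MigR1 in the E2a-/- line, and Dusp5 read 257 and 221 against 247 and 242 there.

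Spry1, an inhibitor of receptor signals to Ras, read 95.3 and 92.2 units with MigR1-Cre against 89.0 and 85.0 with MigR1 in the Lef1F/F line (0.11 ± 0.06, 95% interval -0.03 to 0.25). In the E2a-/- line it read 157 and 149 with MigR1-Cre against 144 and 140 with MigR1 (0.11 ± 0.06). Spred1, which brings the Ras inhibitor neurofibromin to the membrane, was dim at all 8 of its probe sets (the brightest at the 15.8th percentile), between 38.1 and 57.3 units in every array. Its brightest probe set differed by -0.01 ± 0.06 in the Lef1F/F line.

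Apart from Egr1, the 9 genes thus had differences of -0.08 to 0.25 with MigR1-Cre in the Lef1F/F line, each with an adjusted p of 1. The lowest bound of their 95% intervals was -0.29, above the upper bound of Egr1. Between the 2 arrays of each group in that line, 3 of the 10 genes were lower without overlap (16.1% of all genes were) and 4 were higher (16.4% of all genes). The median over the 10 genes was 0.02, and that over all genes was 0.00. In the E2a-/- line the 10 genes had differences of -0.07 to 0.11 and none passed. There 0% of all probe sets passed in limma, while 836 had an unadjusted p under 0.05, none of them among the 19 probe sets of these genes.

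More of the 10 genes passed the threshold between the lines than between the viruses. In MigR1 arrays 4 of the 10 genes were higher in the Lef1F/F than in the E2a-/- line, against 8.71% of all genes, and 1 was lower, against 5.88%. Of the 19 probe sets 5 passed, against 10.7% of all probe sets. Brighter genes passed more often, so the counts were also taken over the genes above the median intensity of the table. Of the 8 such genes among the 10, 4 were higher and 1 was lower, against 13.5% and 9.42% of the 10777 genes of that kind. These shares describe a small number of genes that were chosen with earlier results known.

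Egr1 was 2.18-fold higher in the Lef1F/F line in MigR1 arrays, with 267 and 239 units against 116 and 115 in the E2a-/- line (1.13 ± 0.07, adjusted p = 4.53e-05). Ier2 had 500 and 500 units in the Lef1F/F line against 227 and 244 in the E2a-/- line (1.09 ± 0.07, adjusted p = 3.38e-05). Dusp6 had 156 and 144 against 76.4 and 77.8 (0.96 ± 0.09, adjusted p = 0.000273). These 3 genes were 1.94-fold to 2.18-fold higher, and no MigR1 array of the Lef1F/F line overlapped one of the E2a-/- line. Nr4a1 had 206 and 175 units in the Lef1F/F line against 119 and 123 in the E2a-/- line (0.65 ± 0.11, adjusted p = 0.00777). Its call was lost without the first E2a-/- MigR1 array (adjusted p = 0.0781) or the second (0.0595).

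Spry1 went the other way. It had 89.0 and 85.0 units in the Lef1F/F line against 144 and 140 in the E2a-/- line in MigR1 arrays (-0.71 ± 0.06, adjusted p = 0.000193). Dusp5 had 310 and 292 in the Lef1F/F line against 247 and 242 in the E2a-/- line, which narrowly missed the threshold (0.30 ± 0.08, adjusted p = 0.0549). It passed without either E2a-/- MigR1-Cre array (0.033) and with the pairs as a block (0.0126). Dusp2 had 670 and 799 against 833 and 965 (-0.29 ± 0.11, adjusted p = 0.15, or 0.0374 with the pairs). In this comparison the paired fit called many more genes of all kinds. Of 18193 genes it called 2333 higher and 2065 lower, against 1585 and 1069 without the pairs. Egr2, Egr3 and Spred1 had differences of 0.11, -0.17 and -0.02 and did not pass.

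**Figure D3:**
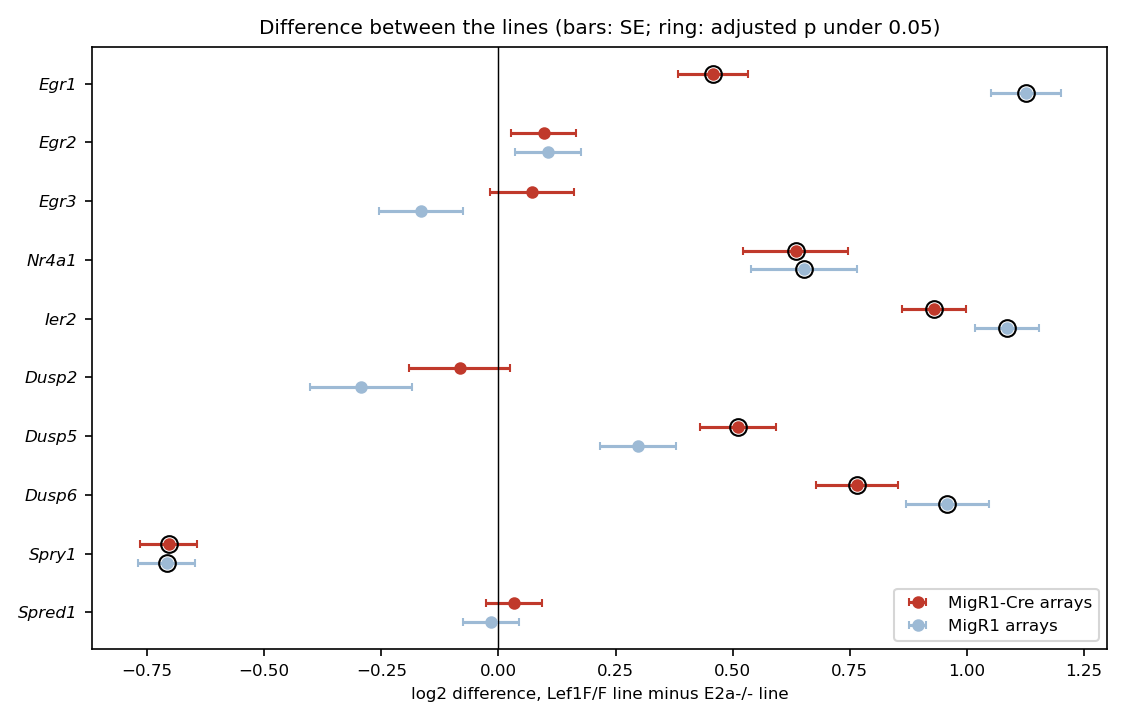
Log2 difference between the Lef1F/F and the E2a-/- line (x axis) for each of the 10 genes, in MigR1-Cre arrays (upper, dark) and MigR1 arrays (lower, light); bars are SE and rings mark an adjusted p under 0.05. Egr1 differed by 0.46 in MigR1-Cre arrays and by 1.13 in MigR1 arrays, and Spry1 by -0.70 and -0.71.

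The MigR1-Cre arrays, a comparison added after the data were seen, gave the same direction for every gene that passed in MigR1 arrays. There 5 genes were higher in the Lef1F/F line, against 8.60% of all genes, and 1 was lower, against 7.46%. Ier2 differed by 0.93 ± 0.07 (adjusted p = 9.19e-05), Dusp6 by 0.77 ± 0.09 (0.000967), Nr4a1 by 0.63 ± 0.11 (0.00835) and Spry1 by -0.70 ± 0.06 (0.00022). Dusp5 passed here, at 0.51 ± 0.08 (0.00487). Egr1 was still higher in the Lef1F/F line after MigR1-Cre, by 0.46 ± 0.07 (0.00556).

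The lines also differed in cell type markers. Of the T lineage markers, Cd2 was higher in the Lef1F/F line in MigR1 arrays (1.22 ± 0.07, adjusted p = 1.95e-05). So were Cd3g (0.46), Notch1 (0.42) and Cd3e (0.32), while Ptcra was lower (-0.36). The other 4 measured T lineage markers did not pass. The 6 stromal markers summed to 899 to 1024 units in the arrays of the Lef1F/F line and to 4713 to 4978 in those of the E2a-/- line. Most of that was Col1a2, a fibroblast collagen gene, at 311 and 294 units in the Lef1F/F line against 4131 and 4189 in the E2a-/- line in MigR1 arrays (-3.78 ± 0.09, adjusted p = 2e-07). Pdgfrb, a growth factor receptor of stromal cells, passed the other way, at 216 and 242 units in the Lef1F/F line against 136 and 141 in the E2a-/- line (0.72 ± 0.12, adjusted p = 0.00568). The other 4 stromal markers did not pass, among them the collagen genes Col1a1 (0.02) and Col3a1 (0.00). The part of these markers in the differences between the lines was not tested. Of the 10 heat shock and stress genes, Hspa1b was higher in the Lef1F/F line in MigR1 arrays (0.92 ± 0.12, adjusted p = 0.00149). Hmox1 was lower (-0.47 ± 0.09, 0.0104), and the other 8 did not pass. In MigR1-Cre arrays 1 of the 10 was higher and 3 were lower. The part of these stress genes was not tested either. No B cell or myeloid marker exceeded 180 units in the mean of any group. Of the 3 measured erythroid markers 1 did, Epor, with means of 214 to 255 over the groups. It did not pass between the lines in MigR1 arrays (0.20 ± 0.10, adjusted p = 0.301).

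The genes around these 10 in the pathway were counted from 6 lists. None of 26 other immediate early genes passed with MigR1-Cre in the Lef1F/F line, and the nearest was Klf6, a zinc finger factor, at -0.34 ± 0.10 (adjusted p = 0.637). Fos, the AP-1 subunit induced beside Egr1, read 78.0 and 83.4 units with MigR1-Cre against 85.6 and 86.3 with MigR1 in that line. Between the lines in MigR1 arrays, 6 of the 26 were higher and 1 lower in the Lef1F/F line, against 8.71% and 5.88% of all genes, or 13.5% and 9.42% of those above the median intensity. Ier3, an early response gene, was higher by 1.52 ± 0.08 (adjusted p = 9.98e-06) and Fos by 0.49 ± 0.06 (0.00163), while the AP-1 subunit Jund was lower (-0.69 ± 0.09, 0.00175). Ier3 read 59.2 and 55.3 and Fos 60.0 and 62.8 in the E2a-/- MigR1 arrays, the level given above for Egr2, so these differences are at best lower bounds.

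None of 23 other ERK feedback and target genes passed with MigR1-Cre in the Lef1F/F line. With the pairs as a block, Dusp1, an early gene for a nuclear phosphatase, rose (0.43 ± 0.11, adjusted p = 0.447 without and 0.0446 with the pairs), and Ccnd1, the gene for cyclin D1, fell (-0.35 ± 0.07, 0.254 without and 0.0283 with the pairs). Between the lines in MigR1 arrays, 8 of the 23 were higher and 1 lower in the Lef1F/F line. The shares were 8.71% and 5.88% of all genes, or 13.5% and 9.42% of those above the median intensity. Of the 23, the lower one was Ccnd1, with 712 and 759 units in the Lef1F/F line against 1215 and 1132 in the E2a-/- line (-0.67 ± 0.07, adjusted p = 0.000601). Etv5, an ETS factor raised by ERK signals, had 228 and 207 units in the Lef1F/F line against 53.7 and 49.9 in the E2a-/- line (2.07 ± 0.12, adjusted p = 2.61e-05), at best a lower bound since the E2a-/- values lie at that same level. Dusp4, a nuclear ERK phosphatase, had 360 and 493 against 183 and 204 (1.13 ± 0.18, 0.00554). Spred2, the relative of Spred1, had 605 and 628 against 333 and 302 (0.96 ± 0.09, 0.000322). After MigR1-Cre these 3 genes differed by -0.02, 0.25 and -0.09 in the Lef1F/F line, each with an adjusted p of 1.

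Upstream of ERK, 1 of 26 genes of the cascade was lower with MigR1-Cre in the Lef1F/F line and none was higher. It was Rasgrp1, the Ras activator below the T cell receptor, with 662 and 711 units with MigR1-Cre against 1186 and 1187 with MigR1 (-0.79 ± 0.06, adjusted p = 0.00531). The dimmer probe sets of Rasgrp1 differed by -0.29, -0.30 and -0.12 and did not pass. With the pairs as a block, its relative Rasgrp2 rose (0.44 ± 0.09, adjusted p = 0.285 without and 0.0376 with the pairs). Of 21 receptor-proximal genes 1 was lower, the kinase gene Syk, with 129 and 128 against 344 and 321 (-1.37 ± 0.06, adjusted p = 0.000584). The paired fit also called Cblb, a ubiquitin ligase that dampens receptor signals (-0.41, adjusted p = 0.24 without and 0.031 with the pairs), Dgka, a kinase that removes the lipid activator of RasGRP1 (-0.41, 0.287 without and 0.0108 with), and Ptcra, the pre-T cell receptor chain, given above. Of 9 EGR partners and targets 2 were lower. Id3, an inhibitor of E proteins, had 281 and 282 units with MigR1-Cre against 726 and 605 with MigR1 (-1.23 ± 0.10, 0.0049). Ptpn22, a phosphatase that restrains receptor signals, had 458 and 424 against 738 and 671 (-0.68 ± 0.07, 0.0157). The difference of the Cre effects between the lines passed for Syk (adjusted p = 0.0184). It did not pass for Rasgrp1 (0.0991), Id3 (0.0947) or Ptpn22 (0.117). Of all genes, 0.220% were lower with MigR1-Cre in the Lef1F/F line. The lists were chosen with earlier results of these data known, and the study itself reported lower Id3, Syk and Rasgrp1. The counts of lower genes in these lists are therefore a description. Nab1, a corepressor that binds EGR proteins, read 1425 and 1525 with MigR1-Cre against 1438 and 1563 with MigR1 and did not pass (adjusted p = 1). Between the lines in MigR1 arrays, 11 cascade genes, 9 receptor-proximal genes and 6 EGR partners and targets were higher in the Lef1F/F line, and 1, 2 and 1 were lower. These are counts of 26, 21 and 9 genes, against 8.71% of all genes higher and 5.88% lower. Of the genes above the median intensity, 13.5% were higher and 9.42% lower. The largest differences upward in these lists were Rasgrp1 (1.33 ± 0.06), Syk (1.99 ± 0.06) and Id3 (3.06 ± 0.10). Nab1 was also higher (0.96 ± 0.07, adjusted p = 5.89e-05). The lower genes were Araf (-0.33), Ptcra (-0.36), Ptprc (-0.30) and Id2 (-0.75).

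**Figure D4:**
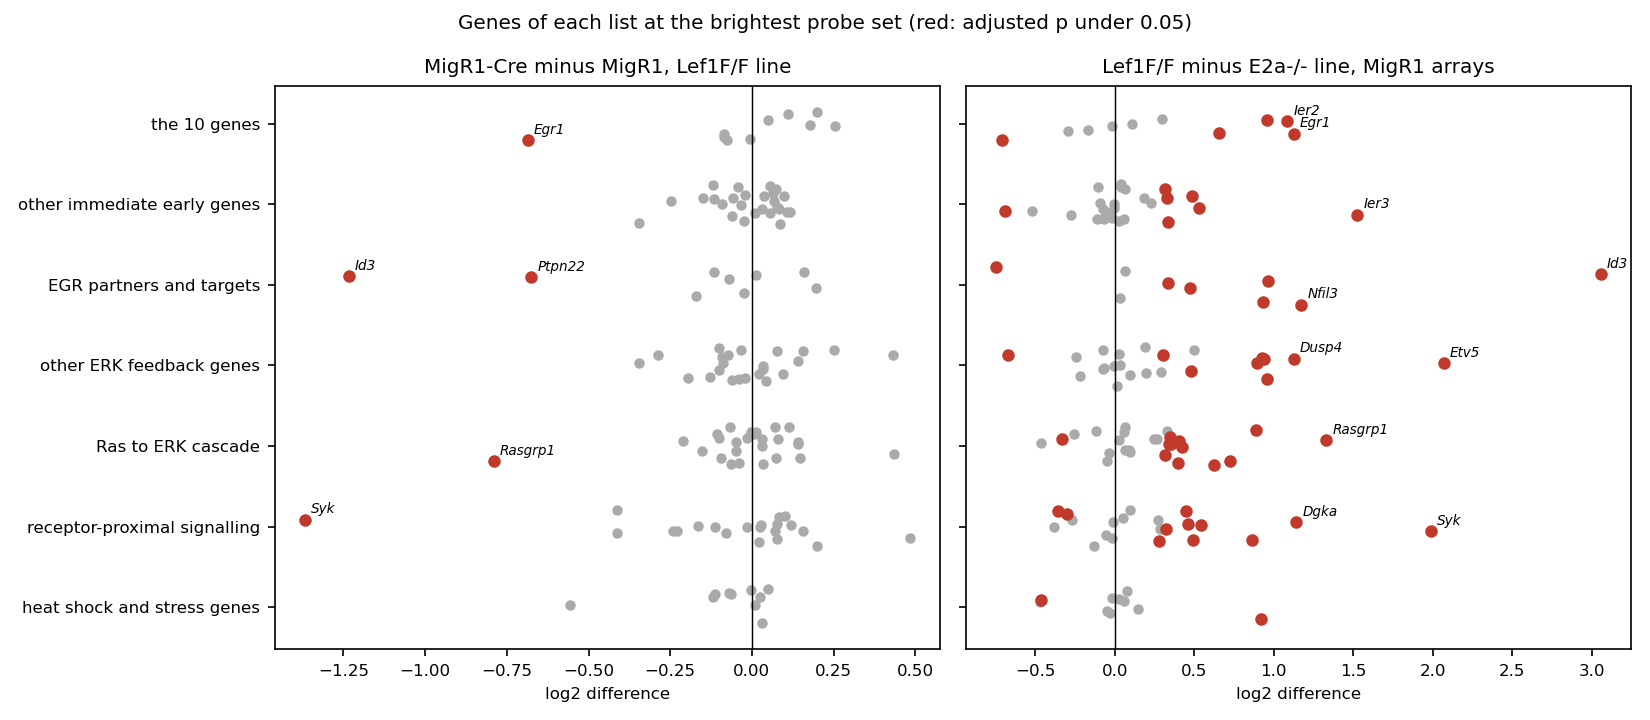
Log2 difference (x axis) of each gene at its brightest probe set, for the 10 genes and 6 lists (rows), with MigR1-Cre in the Lef1F/F line (left) and between the lines in MigR1 arrays (right); red points have an adjusted p under 0.05. On the left 5 genes are red, all lower: Egr1, Id3, Ptpn22, Rasgrp1 and Syk.

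The genes most like Egr1 over the 8 arrays were sought among 10776 others above the median intensity. Rasgrp1 had the highest Pearson correlation of log2 values (0.994), followed by Prmt7 and Pdrg1 (both 0.993), Cd53 (0.992) and Syk (0.991). Prmt7 encodes an arginine methyltransferase, Pdrg1 a chaperone-associated protein and Cd53 a tetraspanin of leukocytes. The 8 arrays fall into 2 lines and 2 viruses, and the values are a description over few points. Among the other 9 genes, the correlation with Egr1 was 0.868 for Ier2, 0.860 for Dusp6 and 0.777 for Nr4a1, and -0.892 for Spry1 and -0.816 for Dusp2.

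Set against the mean of Lef1F/F MigR1 arrays, Egr1 stood at 62.1% in Lef1F/F MigR1-Cre arrays, and Rasgrp1 at 57.9%, Id3 at 42.3%, Syk at 38.7% and Lef1 at 27.5%. In E2a-/- MigR1-Cre arrays Egr1 stood at 45.2% and in E2a-/- MigR1 arrays at 45.8%. Rasgrp1 stood at 38.3% and 39.8% in those 2 groups and Syk at 22.1% and 25.2%. For Egr1, Rasgrp1, Syk and Id3 the Lef1F/F MigR1-Cre arrays lay between the Lef1F/F MigR1 arrays and the arrays of the E2a-/- line. Lef1 itself was lower in Lef1F/F MigR1-Cre arrays than in any array of the E2a-/- line, whose MigR1-Cre arrays averaged 49.2% and whose MigR1 arrays averaged 50.8%.

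**Figure D5:**
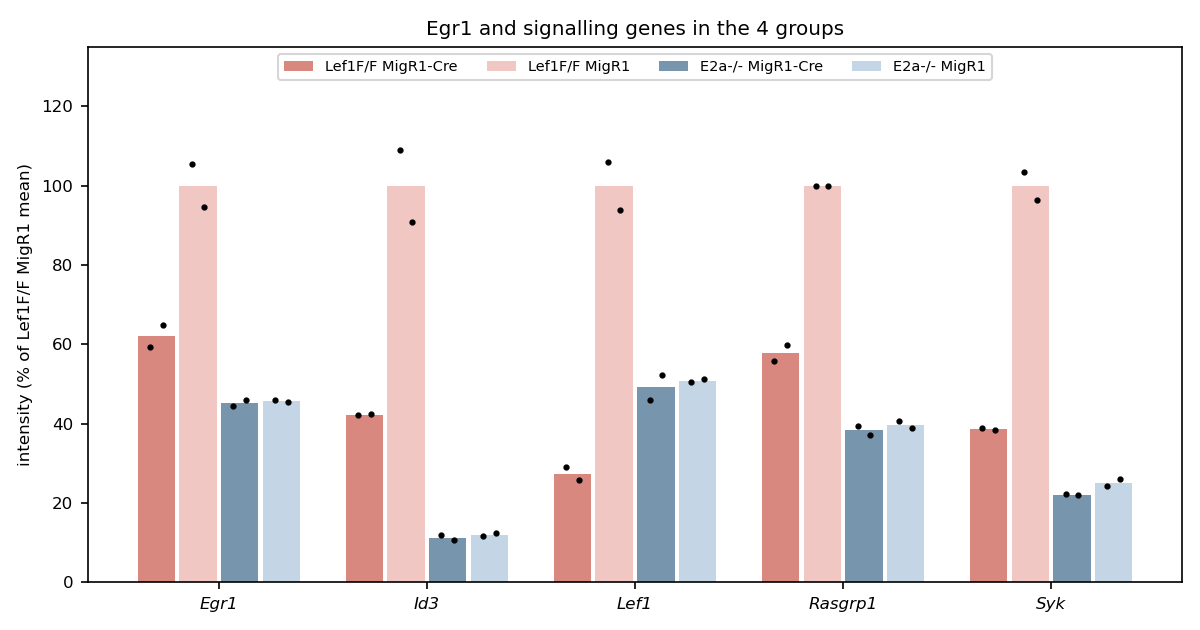
Intensity as a percent of the Lef1F/F MigR1 mean (y axis, from 0) for Egr1, Id3, Lef1, Rasgrp1 and Syk in the 4 groups; bars are means and points are the 2 arrays. Egr1 at 62.1% and Rasgrp1 at 57.9% in Lef1F/F MigR1-Cre arrays stay above both groups of the E2a-/- line, while Lef1 at 27.5% is below them.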

How the data were processed

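RNA of 8 samples was labelled with a 3′ in vitro transcription kit and hybridised to Affymetrix mouse 430 arrays. The authors normalised the scans with RMA, and the deposited table holds the intensity of 45037 probe sets on a linear scale, between 35.3 and 25588 units. RMA makes the arrays' distributions alike, so a change in total RNA cannot be seen, and it compresses low intensities. The program dChip, used in the study to compare groups, had no part here. The series text and the methods name different versions of the array. Groups came from the titles. Another field of the labels gives the other virus for 2 of the groups (MigR1-Cre arrays of the E2a-/- line and MigR1 arrays of the Lef1F/F line) and was not used. In the Lef1F/F line, Lef1 was low in the arrays titled MigR1-Cre and high in those titled MigR1. In the E2a-/- line Lef1 cannot show which virus an array had, so the titles there could not be checked.

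Gene names came from the platform annotation, with 34945 probe sets under 1 symbol, 932 under several and 9160 under none. Only the first kind was named, and 34741 of them matched GRCm38.p6 by gene ID. Each gene was read at its brightest probe set.

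Log2 values, with no offset, were fitted with limma 3.58.1 in R 4.3.3 (lmFit and eBayes) as 4 group means over all 8 arrays, with 4 residual and 3.99 prior degrees of freedom. All p-values are two-sided and adjusted by Benjamini-Hochberg over all probe sets, with a threshold of 0.05. Levels are single arrays or means, and errors of log2 differences are the moderated SE. The fit was tested on simulated data with independent errors, the same spread in every group and no pairs, so that test does not cover the paired fit.

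The members, lists and tests were chosen with earlier results of these data known. The text names every member and the list genes past the threshold with MigR1-Cre in the Lef1F/F line or, for some lists, nearest to it. Of the list genes past the threshold between the lines, only some are named. Also named are Lef1, Rasgrp1, Syk and Id3, and the 5 genes most like Egr1. Some values of Fos, Nab1, Col1a1, Col3a1, Cblb, Dgka, Rasgrp2 and Epor are given outside that rule, chosen after they were seen. Of 170 list entries, 154 were measured; the rest were not analysed here.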

Additional observations from a re-analysis of the deposited data

Results flagged for a closer look

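No probe set of the 10 genes had a Cre effect that differed between the lines past the threshold. Among the genes around them, Syk differed between the lines at 2 probe sets, where the effect of MigR1-Cre in the Lef1F/F line was lower than that in the E2a-/- line by a log2 difference of -1.18 and -1.14. Lef1, the target of Cre, differed in the same way at 2 probe sets, by -2.40 and -1.82. With 2 arrays a group, single arrays that stand apart from the rest of their group could not be tested.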

How the results depend on the processing

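Each result was computed again under other settings: eBayes with trend and robust, only probe sets above the 40th intensity percentile, an offset of 32, array weights, array medians subtracted, quantile normalisation again, gene means and those named in the text. The count of the 10 genes' probe sets past the threshold with MigR1-Cre in the Lef1F/F line was 1. It was 0 with only the 4 arrays compared and 0 at a threshold of 0.01, and 0 to 1 when each array was left out in turn. With the Lef1F/F arrays as 2 pairs, the difference of the Cre effects had 1 probe set past the threshold in place of 0. The labels carry no replicate number that pairs arrays, and these pairs are known from earlier results of these data. The Lef1 probe sets were higher in the Lef1F/F line by 1.01 and 0.97 in MigR1 arrays, and lower there by -1.38 and -0.84 in MigR1-Cre arrays, where Cre had acted in 1 of the lines. Of the single probe sets, 1868 values kept their direction and side of the threshold, 81 that were not called changed sign, 57 lost a call and 12 gained one. With 2 arrays a group and a replicate SD of log2 differences of 0.107 to 0.185, small changes of dim genes such as Egr2 and Spred1 could not be resolved.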
